A study of Rattus norvegicus with 15 samples.

Results

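The coagulation and complement genes described here are 32 named members: clotting factors, their inhibitors, plasminogen, and components and regulators of complement. They were taken from a list of gene names, by a rule that uses no values, although earlier results of these data were known when the list was chosen. On the arrays 30 of the 32 were found by the gene name of a probe, out of 36468 genes or unnamed probes in all. The other two, F9 and C8b, had no gene name on the array and were matched apart through the probe description. All 30, and the probes matched apart, were above background on all 15 arrays, so every named member passed the filter on low values. The array name Kng1 belongs to an accession now called Kng2, and another probe matched apart carries the accession of the present Kng1. Kng1, Kng2 and Kng2l1 are near-identical kininogen genes, and their probes may share signal.

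Fipronil is a phenylpyrazole insecticide. Liver was taken from female Wistar rats (strain Wistar Crl:WI) aged 2 to 3 months. The fipronil group (n = 8) received 3 mg/kg/day as a suspension by feeding needle for 14 days. The vehicle group (n = 7) received the aqueous carrier, 0.5% methylcellulose with 0.01% Tween 80, by the same route and for the same time. Each rat gave 1 array from a fragment of the large lobe, without pooling, and the question was how liver transcripts differ between dosed and undosed rats. In bulk tissue, fewer cells of a type and less RNA per cell cannot be told apart.

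The liver makes most circulating clotting and complement proteins and secretes them as inactive precursors. In coagulation, serine proteases activate each other in sequence until thrombin turns fibrinogen into fibrin, while serpins and the protein C system limit the reaction and plasmin dissolves the clot. Several of these proteases need vitamin K, which allows carboxylation of their glutamate residues and so their binding to membranes. Complement is a related cascade in which C1 or the lectin-associated proteases MASP-1 and MASP-2 cleave C4 and C2, C3 is then cleaved, and C5 to C9 assemble into a pore.

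Signal means log2 processed intensity minus the log2 of the 75th percentile of its array. A call means an adjusted p under 0.05 from limma, with Benjamini-Hochberg adjustment over all 20272 features tested. Over the whole array 175 features were called, which is 0.863%, with 111 higher (0.548%) and 64 lower (0.316%) with fipronil. The arrays of dosed rats were brighter: the 75th percentile averaged 209.96 ± 25.8 (SD, n = 8) over dosed rats against 172 ± 33.3 (SD, n = 7) over vehicle rats, an exact two-sided permutation p of 0.0196. The 4 slides each held both groups, with 2 arrays per group except for 1 vehicle array on the third slide. Of the defining hepatocyte markers, Alb, Apoa1, Apob, Tf, Ahsg and Ttr were saturated on most or all arrays, and the median difference of the other 4 was -0.08. These 4, Asgr1, Tat, Cps1 and Hpd, differed by -0.39, -0.14, -0.02 and 0.20. None was called, and Asgr1 had an adjusted p of 0.114 in limma. Of the lymphocyte and neutrophil markers, Cd3e, Cd2 and Mpo were above background on no array, whereas Cd3g, Nkg7, S100a8 and S100a9 were tested, with uncalled differences of 0.48, 0.32, 0.52 and 0.55.

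Among the 30 members found by name, 1 was called higher with fipronil, Masp1, against 0.548% of all features, and 0 were called lower, against 0.316%. The 0 lower calls came from limma; at an unadjusted limma p under 0.05, 9 of the 30 passed in either direction, against 17.5% of all features. For none of the 30 were the signals of both groups separate, against 0.622% of all features. Of the 30 members, 8 had a probe that was saturated on at least 1 array, and these are set apart. Over the 22 unsaturated members, 4 passed an unadjusted limma p under 0.05, which is 18.2% and close to the 17.5% of all features: Masp1, F7, Pros1 and F13b. Their median log2 difference was 0.05, with 14 above 0 and 8 below, against a median of -0.03 over all features tested. For 10 of the 22 the difference was under 0.1 log2 units in size. The 95% interval of the difference lay within 1.5-fold in either direction for 19 of the 22, and reached past it for F7, Klkb1 and Masp1.

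**Figure D1:**
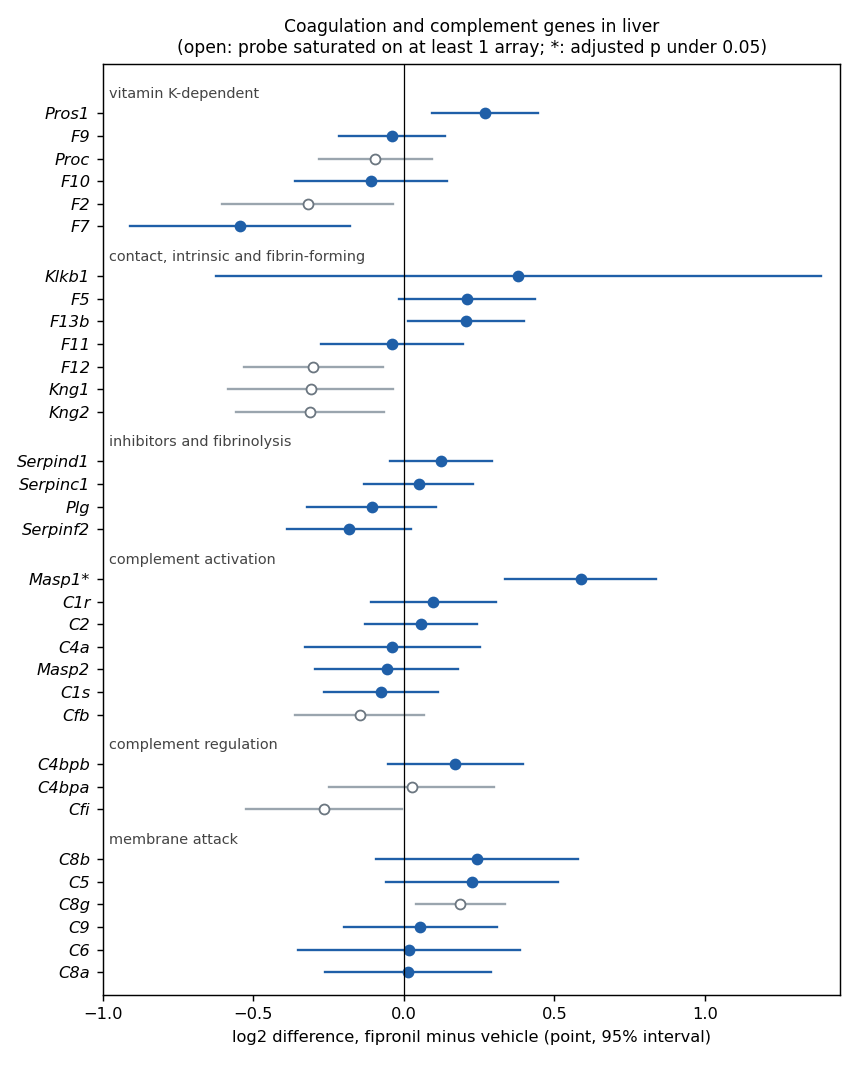
Log2 difference between fipronil (8 rats) and vehicle (7 rats) for each coagulation and complement gene, grouped by role, with its 95% interval from limma; open points mark probes saturated on at least 1 array and the star an adjusted p under 0.05. Masp1 at 0.59 is the only starred gene, F7 lies lowest at -0.54, and Klkb1 has the widest interval, from -0.62 to 1.38.

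Complement activation held the called member. Masp1 encodes the serine protease MASP-1 of the lectin pathway and, by alternative splicing, MASP-3, the protease that activates factor D. Its brightest probe lies at chr11:79602404-79602463 of rn4. With fipronil its signal ran from 3.65 to 4.12 with a median of 3.95. With vehicle it ran from 2.95 to 3.85 with a median of 3.31. All dosed rats were above the vehicle mean, and the groups overlapped only through vehicle replicate 3, whose 3.85 stood above 2 dosed rats. The log2 difference was 0.59 with an SE of 0.12, a 1.503-fold higher mean (95% interval 1.26 to 1.79), and the adjusted p from limma was 0.0259. Within the slides the difference was 0.67, 0.35, 0.33 and 0.92. The call was lost without fipronil replicates 3, 7 or 8 and without vehicle replicates 1, 2, 4, 6 or 7, at log2 differences of 0.53 to 0.59 and adjusted p of 0.0510 to 0.0612. Over all 32 alternatives the difference stayed above 0, from 0.32 to 0.68, and the call was lost in 14, with adjusted p between 0.00367 and 0.321; with array brightness as a covariate it was 0.48 with an adjusted p of 0.275.

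The 4 probes of Masp1 gave differences from 0.10 to 0.59. The probe described as MASP-3, at chr11:79582592-79582651, ran from 2.12 to 2.78 with fipronil (median 2.25) and from 2.00 to 2.39 with vehicle (median 2.27). Its groups overlapped almost entirely, and its log2 difference was 0.10 with an adjusted p of 0.649. Another probe, at chr11:79575112-79575171, ran from -0.79 to -0.27 with fipronil (median -0.43) and from -1.07 to -0.65 with vehicle (median -0.76), a log2 difference of 0.35 with an adjusted p of 0.0994. The fourth probe, matched to positions between 79556315 and 79557485, gave 0.26 with an adjusted p of 0.164. On the array coordinates the brightest probe is the farthest along the chromosome and the MASP-3 probe comes next. The brightest probe minus the MASP-3 probe, taken within each array, averaged 1.56 ± 0.25 (SD, n = 8) in dosed rats against 1.08 ± 0.32 (SD, n = 7) in vehicle rats. The means differ by 0.49 log2 units; these probes were picked after their values were seen, so this is a description with no test. A probe's brightness also depends on its sequence, so the size of the gap within a group has no meaning as an abundance. No genome of rn4 was used here, so the exon under each probe is not given.

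**Figure D2:**
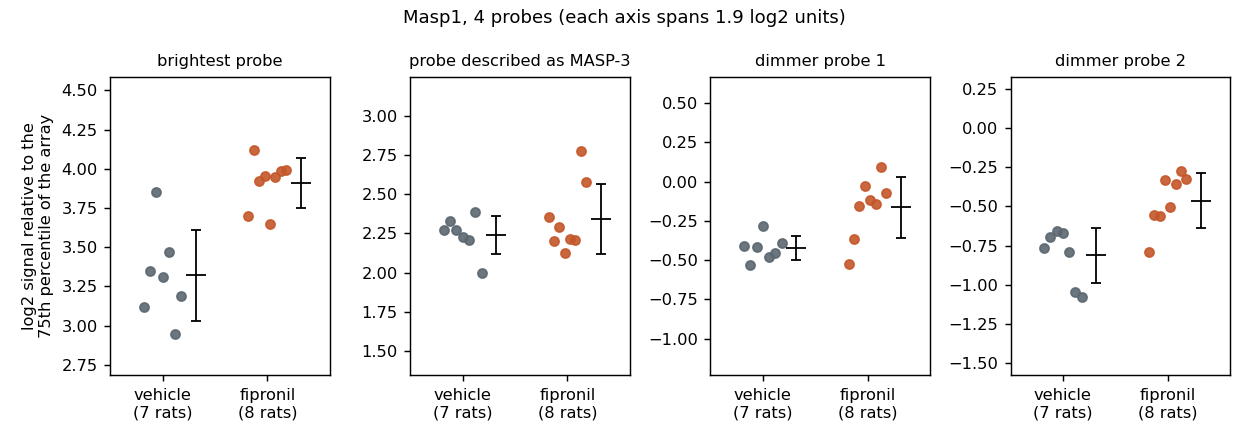
Signal of the 4 Masp1 probes in each rat, as log2 values scaled to the array's 75th percentile; points are rats, the bar beside them is the mean with SD, and every panel spans the same log2 range. The groups part most at the brightest probe, where medians are 3.95 and 3.31, and least at the probe described as MASP-3, where they are 2.25 and 2.27.

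The remaining proteases and substrates of complement activation gave small differences, none called. C1r and C1s, the proteases of C1, had log2 differences of 0.10 (adjusted p 0.650) and -0.08 (adjusted p 0.714). C2, whose product is the protease of the classical C3 convertase, differed by 0.06, with signals of 4.94 to 5.47 with fipronil and 4.97 to 5.33 with vehicle. C4a differed by -0.04 with an SE of 0.14; its probe lists accessions of C4a and C4b, which cannot be told apart. Masp2, the other lectin pathway protease, differed by -0.06 at its brightest probe and by 0.09 and 0.06 at its other probes. The 95% intervals of C1r, C1s, C2 and Masp2 lay within -0.29 and 0.31 log2 units. Whether these differences differ from that of Masp1 was not tested. Cfb, the protease of the alternative pathway, was saturated on 6 arrays and is given below.

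The promoters of Masp1 and F7 are shown because these genes had the highest and the lowest log2 difference of the members. Each run is the 250 bases before the RefSeq start in GRCr8, at chr11:90839472-90839721 on the plus strand and chr16:83202739-83202988 on the minus strand, read 5′ to 3′ along the gene. Capitals mark a nuclear receptor half-site, searched as AGGTCA or AGTTCA on both strands, so TGACCT is the first of these read from the other strand.
Masp1: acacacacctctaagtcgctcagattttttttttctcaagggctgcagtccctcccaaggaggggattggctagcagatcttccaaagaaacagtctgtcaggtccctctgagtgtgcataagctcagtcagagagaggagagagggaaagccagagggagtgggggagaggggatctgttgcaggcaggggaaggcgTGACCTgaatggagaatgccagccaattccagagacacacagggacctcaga
F7: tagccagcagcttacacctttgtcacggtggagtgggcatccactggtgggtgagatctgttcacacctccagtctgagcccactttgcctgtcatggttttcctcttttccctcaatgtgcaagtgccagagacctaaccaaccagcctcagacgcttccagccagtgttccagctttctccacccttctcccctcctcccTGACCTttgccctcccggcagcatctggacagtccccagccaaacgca
Either half-site was present in 14 of the 26 genes with a promoter available (53.8%) and in 8124 of all 33469 promoters (24.3%). These 26 include F9, C8b and Kng1, which were matched apart, and the remaining members had no promoter available. The difference between these shares was not tested, and the set of all promoters was not restricted to genes with signal in liver. The longer motif CAAAGTCCA, which contains neither half-site, was in 0 of the 26 and in 0.338% of all. Both genes shown hold 1 half-site, and so do members whose difference was near 0, such as F9 and C1r. A match is a description of letters, and binding was not measured.

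Vitamin K-dependent members gave differences in both directions, none called. F7, the plasma protease that starts coagulation with tissue factor, had signals of 1.85 to 3.11 with fipronil (median 2.53) and 2.75 to 3.50 with vehicle (median 3.15). Of the dosed rats 7 were below the vehicle mean, and 3, at 2.79 to 3.11, lay inside the vehicle range. The log2 difference was -0.54 with an SE of 0.17, a vehicle mean 1.46 times that with fipronil, and limma gave an adjusted p of 0.136. It had the same sign within each slide, from -0.81 to -0.28, and lay between -0.64 and -0.44 over the alternatives.

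Pros1, the cofactor of activated protein C, had signals of 1.86 to 2.35 with fipronil (median 2.12) and 1.65 to 1.97 with vehicle (median 1.84). All dosed rats were above the vehicle mean, while 2 of them lay inside the vehicle range. The log2 difference was 0.27 with an SE of 0.08 and an adjusted p of 0.130. F9, the protease deficient in haemophilia B, differed by -0.04 (95% interval -0.21 to 0.14). F10, which forms the prothrombinase with factor V, differed by -0.11 over 6 and 6 rats, since outlier spots were dropped on 3 arrays. Proc and F2 were saturated on some or all arrays.

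**Figure D3:**
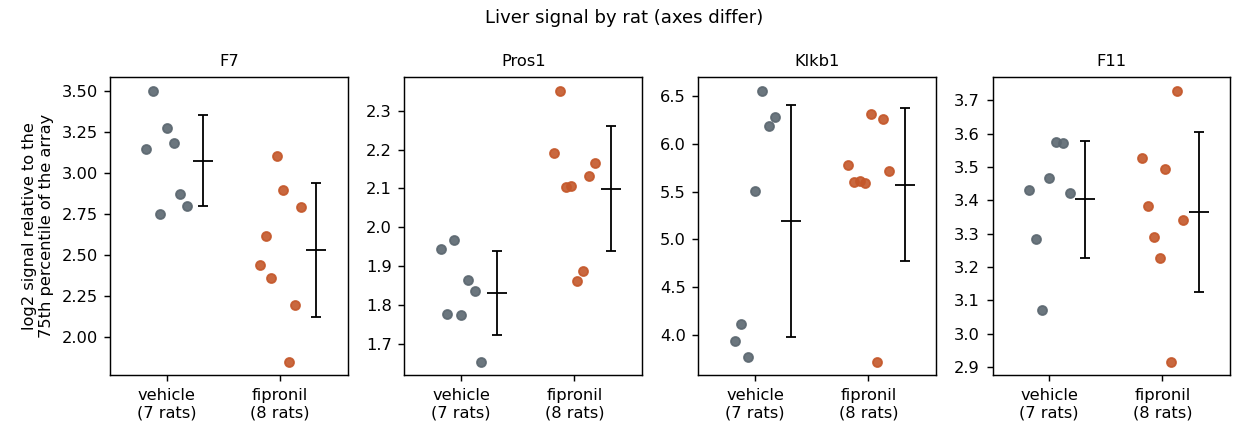
Signal of F7, Pros1, Klkb1 and F11 in each rat, as log2 values scaled to the array's 75th percentile; points are rats, the bar beside them is the mean with SD, and the vertical axes differ. F7 and Pros1 overlap in part between groups, Klkb1 has 4 rats at or below 4.12 and none from there to 5.51, and F11 overlaps throughout.

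In the contact, intrinsic and fibrin-forming group, Klkb1 had the widest spread of the members. It encodes plasma prekallikrein, which factor XII activates and which releases bradykinin from kininogen. Its signal with vehicle was 3.94, 4.12, 3.77, 5.51, 6.56, 6.19 and 6.28 in replicates 1 to 7. With fipronil it was 5.78, 5.60, 5.61, 5.59, 6.31, 3.72, 6.26 and 5.71 in replicates 1 to 8. Of the 15 rats, 4 lay at 3.72 to 4.12, 3 of them in the vehicle group, and the other 11 lay at 5.51 to 6.56. The SD within groups was 1.02, higher than for 99.0% of features, and the log2 difference was 0.38 with an SE of 0.47 and an adjusted p of 0.731. Without slide 1 the difference was -0.13, and its interval from -0.62 to 1.38 leaves its direction unsettled. F11, a close homologue beside Klkb1 on chromosome 16 of rn4, did not show these levels: its signals were 2.92 to 3.73 with fipronil and 3.07 to 3.57 with vehicle, a log2 difference of -0.04.

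F5, the cofactor of factor X in thrombin formation, had signals of 3.14 to 3.84 with fipronil (median 3.31) and 3.00 to 3.44 with vehicle (median 3.11). The log2 difference was 0.21 with an SE of 0.11 and an adjusted p of 0.323, and a second, much dimmer probe gave -0.07. F13b, the carrier subunit of the transglutaminase that cross-links fibrin, ran from 3.57 to 4.08 with fipronil and from 3.33 to 3.84 with vehicle. Its log2 difference was 0.21 with an SE of 0.09 and an adjusted p of 0.255.

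The inhibitors and fibrinolysis genes were close to 0. Serpinc1, antithrombin, ran from 7.89 to 8.32 with fipronil and from 7.93 to 8.40 with vehicle, a log2 difference of 0.05 (95% interval -0.13 to 0.23). Its mean log2 intensity before scaling, 15.9 with fipronil and 15.5 with vehicle, was near that of Proc, 15.8 and 15.6, which had saturated spots. Serpinc1 was saturated on no array, and whether the scanner's upper limit reduced its difference was not tested. Serpind1, heparin cofactor II, differed by 0.12 (-0.05 to 0.29). Serpinf2, the inhibitor of plasmin, differed by -0.18 (-0.39 to 0.02) at its brightest probe and by -0.04 at its second. Plg, the precursor of plasmin, differed by -0.11 (-0.32 to 0.11). None of the 4 was called, and each interval lay inside 1.5-fold in both directions.

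Among the regulators of complement, C4bpb, the beta chain of C4b-binding protein that also carries protein S in plasma, differed by 0.17 with an SE of 0.11 (adjusted p 0.426). The alpha chain gene C4bpa, with saturation on 3 arrays, differed by 0.03. The 6 membrane attack genes had differences above 0, although C6, C8a and C9 changed sign in other settings, and none was called. C5, whose cleavage starts the pore, had signals of 2.08 to 2.66 with fipronil and 1.71 to 2.63 with vehicle, and its 3 probes differed by 0.23, 0.24 and 0.19. C8b differed by 0.24 with an SE of 0.16; 6 of its 7 vehicle signals were 5.70 to 5.94 and the seventh was 6.63, while dosed rats ran from 5.70 to 6.50. C6, C8a and C9 differed by 0.02, 0.01 and 0.05. C8g, the lipocalin-like chain of C8, was saturated on 1 array and ran from 7.80 to 8.07 with fipronil and from 7.59 to 7.89 with vehicle, a log2 difference of 0.19 with an adjusted p of 0.192.

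Saturated probes gave values that cannot be read as changes. F2, the gene of prothrombin, and Kng2 and Kng1, the kininogens, were saturated on all 15 arrays, and F12 and Cfi on 14. Their log2 differences were -0.32, -0.31, -0.31, -0.30 and -0.26. The 75th percentile by which every array was scaled differed by 0.31 log2 units between groups, and a probe at the scanner's ceiling differs by the opposite amount after scaling. The 72 features saturated on every array had a median difference of -0.31, and before scaling the 5 genes differed by -0.01, 0.00, 0.00, 0.01 and 0.04. A second probe of F12, saturated on no array, differed by -0.02 with signals of 6.14 to 6.75 and 6.35 to 6.71. No fold is given for F2, Kng2, Kng1, F12 or Cfi. Proc, protein C, was saturated on 3 arrays and differed by -0.10, and Cfb on 6 arrays and differed by -0.15.

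**Figure D4:**
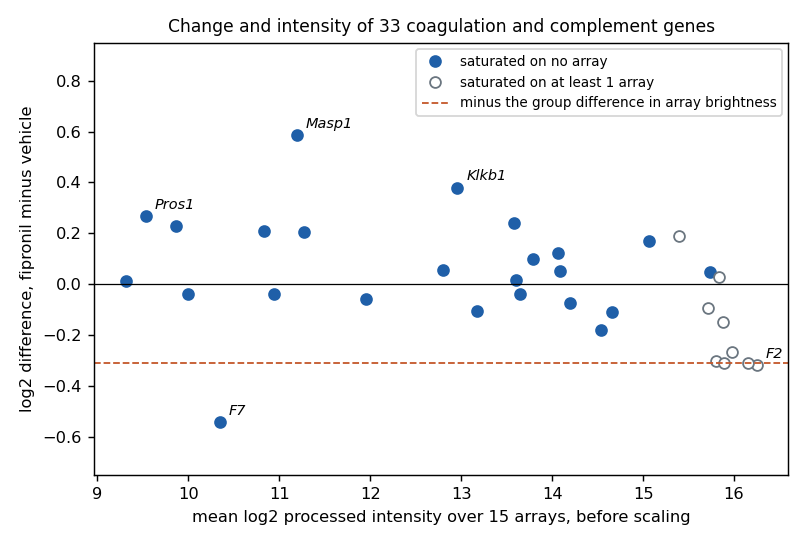
Log2 difference between groups for the 33 coagulation and complement genes, against their mean log2 processed intensity before scaling; open points mark probes saturated on at least 1 array, and the dashed line lies at minus the group difference in array brightness, 0.31. The brightest saturated genes lie at that line, whereas unsaturated genes scatter around 0.

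The spread between rats was also compared. The median SD within groups was 0.20 for the 22 unsaturated members and 0.26 over all features tested; for the 2028 features of highest signal it was 0.18. Serpind1, F9 and Pros1 had the lowest values among unsaturated members, 0.13, 0.14 and 0.14. C6, F7 and C8b followed Klkb1 at the top with 0.36, 0.35 and 0.32. Between slides 0 members passed limma's F test (lowest adjusted p 0.261), where 2.41% of all features did; at that share, 0 of the members is no result about them.

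**Figure D5:**
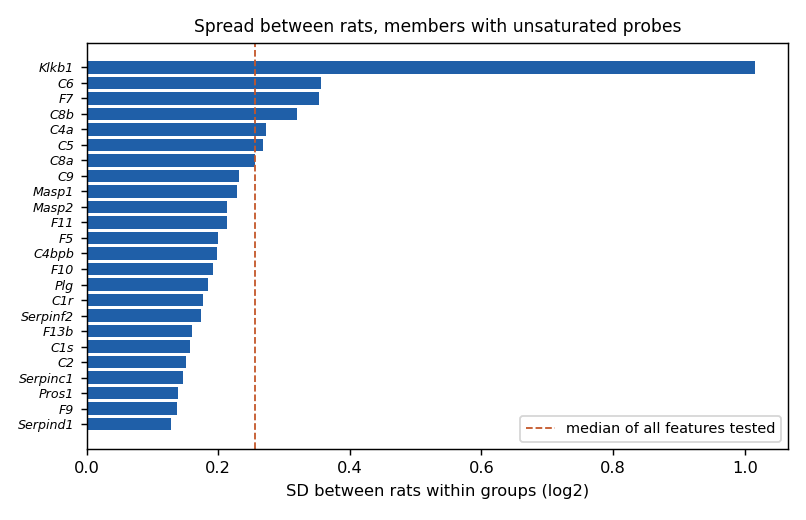
SD of signal between rats within groups, in log2 units, for coagulation and complement genes whose probes were saturated on no array; the dashed line is the median of all features tested, 0.26. Klkb1 at 1.02 stands apart, and most other genes lie left of the line.

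Other genes of these pathways came from a wider list of 63, of which 51 were tested; 1 was called higher and 0 lower, where 0.548% and 0.316% of all features were. At an unadjusted limma p under 0.05, 13 of the 51 passed, but 8 of these 13 have saturated probes. Of the 42 unsaturated genes 5 passed, which is 11.9% against 17.5% of all features, and the median log2 difference was 0.03, against -0.04 over all 51. The called gene was F8, the cofactor of factor IX, made mainly by endothelial cells of the liver. Its signal ran from -1.78 to -1.18 with fipronil (median -1.31) and from -2.34 to -1.54 with vehicle (median -1.80). The ranges overlapped through fipronil replicate 3 at -1.78, and the log2 difference was 0.54 with an SE of 0.12 and an adjusted p of 0.0484 in limma. The call held in 10 of 32 alternatives, and the difference was 0.25 after normexp background correction. It was lost without fipronil replicates 1, 2, 4, 5, 6, 7 or 8 and without vehicle replicates 1, 2, 4, 6 or 7, at log2 differences of 0.47 to 0.56 and adjusted p of 0.0594 to 0.0946. Of 6 endothelial markers 5 were tested and 0 were called by limma, against 0.863% of all features, with a median difference of 0.42. At an unadjusted limma p under 0.05 there were 3, which is 60% against 17.5% of all features. Lyve1, Tek, Stab2 and Kdr gave 0.52, 0.44, 0.42 and 0.29, and Cdh5 gave -0.08. Tek was above background on 7 arrays, the fewest the filter allows, and ran from -0.07 to 0.79 over the alternatives. The summed linear signal of the 6 markers, in units of the array's 75th percentile, was 67.4 to 128.5 with fipronil and 56.3 to 77.3 with vehicle. Most of that sum is Kdr, and without it the sums were 6.48 to 10.1 and 4.38 to 8.18. Pecam1 was above background on 1 array, and the part of these markers in the F8 value was not tested.

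Further members of the wider list were uncalled. Serpina10, the protein Z-dependent inhibitor of factor Xa, had signals of 3.55 to 4.26 with fipronil and 3.23 to 3.71 with vehicle, a log2 difference of 0.45 with an adjusted p of 0.0583. F2rl1, a protease-activated receptor, differed by 0.60 with an adjusted p of 0.0913. It was dim, above background on 13 arrays, and its difference ran from 0.18 to 0.83 over the alternatives. Of the vitamin K cycle all 6 genes were tested and 0 called by limma, against 0.863% of all features, with a median difference of -0.27. At an unadjusted limma p under 0.05 there was 1, Vkorc1, which is 16.7% against 17.5% of all features. Ggcx, the carboxylase, differed by -0.27 (95% interval -0.57 to 0.03). Vkorc1, the reductase that warfarin blocks, differed by -0.28, but its probe was saturated on 9 arrays. It has 2 probes on the array. The other probe entered the alternatives that took the brightest unsaturated probe or the mean of probes, and its own value is not reported here. Over all alternatives the Vkorc1 difference ran from -0.64 to -0.04, with 0 calls and a lowest adjusted p of 0.0759 in limma. That range does not come from the saturated probe alone. Aifm2, a quinone reductase, differed by -0.32 with an adjusted p of 0.319.

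In the wider complement list 20 of 28 genes were tested and 0 called by limma, against 0.863% of all features, with a median of 0.03. At an unadjusted limma p under 0.05 there were 3, which is 15% against 17.5% of all features: C3, Vtn and Mbl2. C3 and Vtn, saturated on all arrays, gave -0.31 each. Mbl2, a lectin that brings MASP proteases to microbial sugars, ran from 2.54 to 2.96 with fipronil and from 2.40 to 2.67 with vehicle, a log2 difference of 0.22 with an adjusted p of 0.196. Transcription factors and receptors known to control these genes in liver gave 21 tested and 0 called, against 0.863% of all features, with a median of -0.06. At an unadjusted limma p under 0.05 there were 6, which is 28.6% against 17.5% of all features: Esr1, Nr1h4, Ghr, Il6r, Il6st and Foxa1. Hnf4a and Cebpa, hepatocyte factors with sites in many clotting genes, differed by 0.03 and -0.01. Nr1h4, the bile acid receptor, differed by 0.46 (adjusted p 0.150) and Esr1, the oestrogen receptor, by -0.59 (adjusted p 0.141). Over the alternatives Nr1h4 ran from 0.18 to 0.62 and Esr1, a dim probe, from -0.78 to -0.10. Ghr, Il6r, Il6st and Foxa1 differed by -0.31, -0.41, 0.28 and 0.39, with adjusted p of 0.161 to 0.221.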

How the data were processed

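Deposited array files hold spot intensity values from Agilent Feature Extraction 9.5.3.1, with background subtracted but no normalization across arrays, per the file headers. The series value table holds log2 values deposited by the authors and served as an alternative; limma is named in the submitters' processing notes. Members and gene lists were chosen with earlier results of these data known. Named are all members, any called gene of the other lists and the 3 genes of lowest p in each pathway list; Ggcx, the named regulators and the named cell type markers were named after their values were seen. Some genes of these lists are not reported here. Outlier spots were dropped, spots of a probe averaged, and log2 processed intensity scaled by each array's 75th percentile. A gene is represented by its brightest probe. Features well above background on at least 7 of 15 arrays, with at most 3 missing, were tested with limma 3.58.1 in R 4.3.3, which was tested on simulated data. Probe positions are in rn4, per the file headers; names and promoters come from RefSeq, GRCr8. The number of rats limits the precision. Alternatives were other normalizations, filters, probe rules, slide or replicate as a block, brightness as a covariate, and leaving out each array or slide. Unscaled values of saturated members and the contrast of Masp1 probes were added after seeing the data.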

Additional observations from a re-analysis of the deposited data

Results flagged for a closer look

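In 68 groups of 6 to 8 rats, 9 held a rat far from the others; chance flags about 1 in 20 groups. Fipronil replicate 2 was lowest of the dosed rats for Proc (7.73, next 8.04), F12 (7.77, next 8.09), Kng2 (7.86, next 8.14) and Cfb (7.81, next 8.15). It was the brightest array, with a 75th percentile of 269.5, and its F12, Kng2 and Cfb spots were saturated. Fipronil replicate 6 was lowest for Klkb1 (3.72, next 5.59), and fipronil replicate 3 for F8 (-1.78, next -1.40). Vehicle replicate 3 was lowest for Plg (5.35, next 5.63) and C2 (4.97, next 5.18). Vehicle replicate 6 was highest for C8b (6.63, next 5.94).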

How the results depend on the processing

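The signs of Masp1, F7, Pros1, F5, F13b, F10, Serpind1, Serpinf2, Plg, C1r, C1s, C2, C4bpb, C5, C8b and C8g held in every alternative that kept a scaling. Signs within slides turned more often, and 10 of the 33 genes had the same sign on all 4 slides. These were Masp1, F7, Pros1, C1s and C4bpb, and the saturated F2, Kng2, Kng1, F12 and Cfi. The 175 features called became 85 with no filter on dim probes, 90 with the replicate block, 39 with array brightness as a covariate, and 33 and 49 without slides 1 and 4; leaving out single arrays gave 86 to 281. It was 114, 110 and 86 without fipronil replicates 1, 7 and 8, 109, 90 and 97 without vehicle replicates 1, 2 and 7, and 281 without vehicle replicate 3. Masp1 lost its call in these 5 settings and with the mean of its probes, leaving 0 members called, and single arrays gave 0 to 1. Its log2 difference and adjusted p were 0.58 and 0.0966 with the replicate block. Deviations of same-numbered rats correlated at -0.05 to 0.37, and 3 of 7 vehicle rats correlated best with their own number. Most same-numbered rats shared a slide, so these values cannot tell pairing from slide. Whether replicate numbers pair the rats was not settled.

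The count of 1 other pathway gene became 2 with probes above background on all arrays and with array weights. It became 0 with normexp, the authors' table, no filter, slide or replicate block, brightness covariate, and without slides 1, 2 or 4, and single arrays gave 0 to 1.

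Values of uncalled members changed sign as follows. With the brightness covariate F2 was 0.0154, Proc 0.0406, Kng1 0.0102, Masp2 0.0099, Cfi 0.0353 and C8a -0.0955. Median scaling gave F9 0.0263, F11 0.0256, C4a 0.0263 and Masp2 0.0078. Array weights gave F11 0.0110 and C6 -0.0791, the authors' table F12 0.0005 and C4a 0.0058, the mean of probes Masp2 0.0301, and quantile normalization Cfb 0.0391. The slide block gave C4bpa -0.0042 and C6 -0.0408. Without slide 1 Klkb1 was -0.1261, C4a 0.0920, C4bpa -0.0649 and C9 -0.1146. Without slide 2 C4a was 0.0180, and without slide 3 F11 was 0.0422 and C6 -0.0595. Without slide 4 Serpinc1 was -0.0269, Masp2 0.0140 and C8a -0.1034. Leaving out single arrays gave F11 -0.0945 to 0.0246, C4a -0.1008 to 0.0269, C4bpa -0.0660 to 0.0801, C6 -0.1031 to 0.1082, C8a -0.0296 to 0.0957 and C9 -0.0064 to 0.1233. The causes were not tested. Leaving out the scaling adds the brightness difference of 0.31 to every gene by construction, so unscaled values above 0 are no separate sign of instability: Proc was 0.2132, F12 0.0073, Cfb 0.1612 and Cfi 0.0434. Saturation limits 8 of the 30 members, above all the 4 saturated on at least 13 arrays.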
